A study of Mus musculus with 2 samples.

Results

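Neutrophils that carried mRNA for secondary granule proteins were described in CD45+ cells from mouse tumours of intrahepatic cholangiocarcinoma, which arises from bile duct cells within the liver. A barcode, the sequence tag that stands for 1 captured cell, was chosen by 3 measured sums of unique molecular identifiers (UMIs, counted mRNA molecules). The neutrophil genes Csf3r, Cxcr2, Il1r2, G0s2 and Retnlg had to sum to at least 3, the mononuclear phagocyte genes Csf1r, C1qa, C1qb and H2-Aa to at most 2, and the granule genes Ngp, Camp and Ltf to at least 2. Of 21211 barcodes kept in both libraries, 188 met the rule, 122 in the MOCK library and 66 in the NAV library. They were set beside the 4725 other neutrophil barcodes, which met the first 2 conditions but had 0 or 1 granule UMI.

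C57BL/6 mice had received, by hydrodynamic injection, transposon vectors for Myr-AKT, a membrane-bound AKT kinase, and YAPS127A, a form of the transcriptional co-activator YAP that escapes an inhibitory phosphorylation. Tumours of both groups carried both oncogenes. From day 7 the NAV group was given NAV2729, a small molecule known as an inhibitor of ARF GTPases, at 30 mg/kg on alternate days for 7 days, and the MOCK group went without it. Sex, age and the vehicle of the MOCK group were not given in the sources used here. CD45+ cells were sorted by flow cytometry from pooled tumours (6 per group in the series text, 3 pairs in the protocol) and made into 1 BD Rhapsody library per group. With 1 pooled library per group there was no replicate check and no test was possible, so every difference compares these 2 libraries. All intervals are exact 95% intervals that cover counting error only.

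Neutrophils fill their granules in an order set by when each gene is transcribed. Azurophil granule proteins such as myeloperoxidase are made at the promyelocyte stage, specific granule proteins such as lactoferrin and cathelicidin at the myelocyte and metamyelocyte stages, and gelatinase granule proteins at the band stage. Transcription of the specific granule genes is driven by C/EBP factors, C/EBP epsilon above all, and has largely ceased in mature neutrophils, which then leave the marrow. In tumours, neutrophils with SiglecF, inflammatory cytokines and glycolytic genes are known as a long-lived, altered state.

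The 3 granule genes of the rule lie on mouse chromosome 9, in GRCm38 coordinates of the GENCODE annotation. Ngp (ENSMUSG00000032484, chr9:110419747-110423012, plus strand) encodes neutrophilic granule protein, a cystatin-related protein of specific granules. Camp (ENSMUSG00000038357, chr9:109847379-109849617, minus strand) encodes cathelicidin, an antimicrobial peptide precursor. Ltf (ENSMUSG00000032496, chr9:111019271-111042767, plus strand) encodes lactoferrin, an iron-binding protein. Their upstream sequences are shown because the members split by which of these 3 genes they carried. Each is the 250 bases before the RefSeq start on GRCm38.p6, written 5′ to 3′ on the gene's strand, with matches to 2 motifs in capitals, searched on both strands. The motifs are TTNNGNAA, a core of C/EBP sites, and GAGGAA, a core of sites of PU.1, the myeloid factor encoded by Spi1.
Ngp, chr9:110419558-110419807, plus strand: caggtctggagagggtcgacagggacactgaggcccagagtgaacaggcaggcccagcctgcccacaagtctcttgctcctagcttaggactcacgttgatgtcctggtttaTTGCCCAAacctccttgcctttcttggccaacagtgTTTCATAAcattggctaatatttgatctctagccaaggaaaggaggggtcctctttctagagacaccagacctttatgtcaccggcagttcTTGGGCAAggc
Camp, chr9:109849457-109849706, minus strand: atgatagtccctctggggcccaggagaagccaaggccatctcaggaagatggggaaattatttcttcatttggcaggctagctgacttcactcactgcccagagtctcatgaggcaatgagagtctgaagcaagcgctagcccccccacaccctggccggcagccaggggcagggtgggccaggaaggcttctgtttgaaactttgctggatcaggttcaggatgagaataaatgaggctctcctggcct
Ltf, chr9:111019042-111019291, plus strand: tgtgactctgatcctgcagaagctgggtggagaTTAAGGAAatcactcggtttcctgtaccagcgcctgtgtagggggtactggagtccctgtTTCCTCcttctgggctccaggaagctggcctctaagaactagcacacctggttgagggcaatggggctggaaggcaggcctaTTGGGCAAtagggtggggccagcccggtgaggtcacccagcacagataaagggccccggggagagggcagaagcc
The Ngp sequence held 3 matches to the C/EBP core and 0 to the PU.1 core, the Ltf sequence 2 and 1, and the Camp sequence 0 and 0. Of 32851 RefSeq promoters of this length, 36.8% held at least 1 match to the C/EBP core and 12.2% at least 2, and 23.3% held the PU.1 core. No matched motifs overlapped. Each sequence runs past the GENCODE start of its gene, so its last part lies within the gene span given above. The last C/EBP match of the Ngp sequence lies in that part. A match describes these letters and is not a measured binding site.

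MOCK had 45976676 UMIs in 10863 barcodes and NAV had 31454031 in 10465, of which the filter on quality kept 10770 and 10441. No member was among the 5 barcode sequences shared by both libraries. Members had a median of 1902.5 UMIs in MOCK and 1417.5 in NAV, against 1286 and 1199 in other neutrophils. Levels below are CPM, the UMIs of a gene per 1000000 UMIs summed over a class of barcodes, compared for 1 gene at a time. Ratios are log2 of NAV CPM over MOCK CPM, with an exact interval from the summed counts.

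The label of granule-rich immature neutrophils held for few of the members. All 6 marker genes proposed for it (Ngp, Camp, Ltf, Ly6g, Cd177 and Mmp8) were detected in members of both libraries, but 3 of the 6 are genes of the rule. Genes of the preceding stage were nearly silent. Mpo, Elane, Prtn3 and Ctsg, the azurophil granule peroxidase and proteases, summed to 1 UMI in the 122 MOCK members and 0 in the 66 NAV members. Cebpe, the factor of specific granule transcription, was at 0 in both, and Gfi1, a factor of granulocyte commitment, had 0 and 1 UMI. Kit and Cd34, genes of progenitors, had 2 and 0 UMIs in MOCK and 1 and 0 in NAV. All 31 UMIs of 6 cell cycle genes in MOCK members came from 1 barcode, and in NAV 4 barcodes held 5. That MOCK barcode had 8644 UMIs, the highest granule sum (540), 20 T cell receptor complex or coreceptor UMIs and 43 of the T cell chemokine Ccl5. Whether it holds more than 1 cell was not tested.

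Most members carried few granule UMIs, and the 2 libraries carried different granule genes. In MOCK the granule sum per member was 2 at the lowest, 4 at the median and 540 at the highest. In NAV it was 2, 2 and 290. A sum of exactly 2 was found in 39 of 122 MOCK members and 42 of 66 NAV members, and a sum above 20 in 18 and 4. Of the 122 MOCK members, 90 held Ngp without Camp or Ltf, 4 Ngp and Camp, 5 Ngp and Ltf, 11 all 3 genes and 12 Ltf only. Of the 66 NAV members, 46 held Ltf only, 8 Ngp only, 3 Ngp and Ltf, 2 Camp only, 1 Camp and Ltf, and 6 all 3 genes. The MOCK members were mostly Ngp-bearing and the NAV members mostly Ltf-bearing. Summed over members, Ngp had 2368 UMIs in MOCK and 543 in NAV, Camp 419 and 106, and Ltf 406 and 262.

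**Figure D1:**
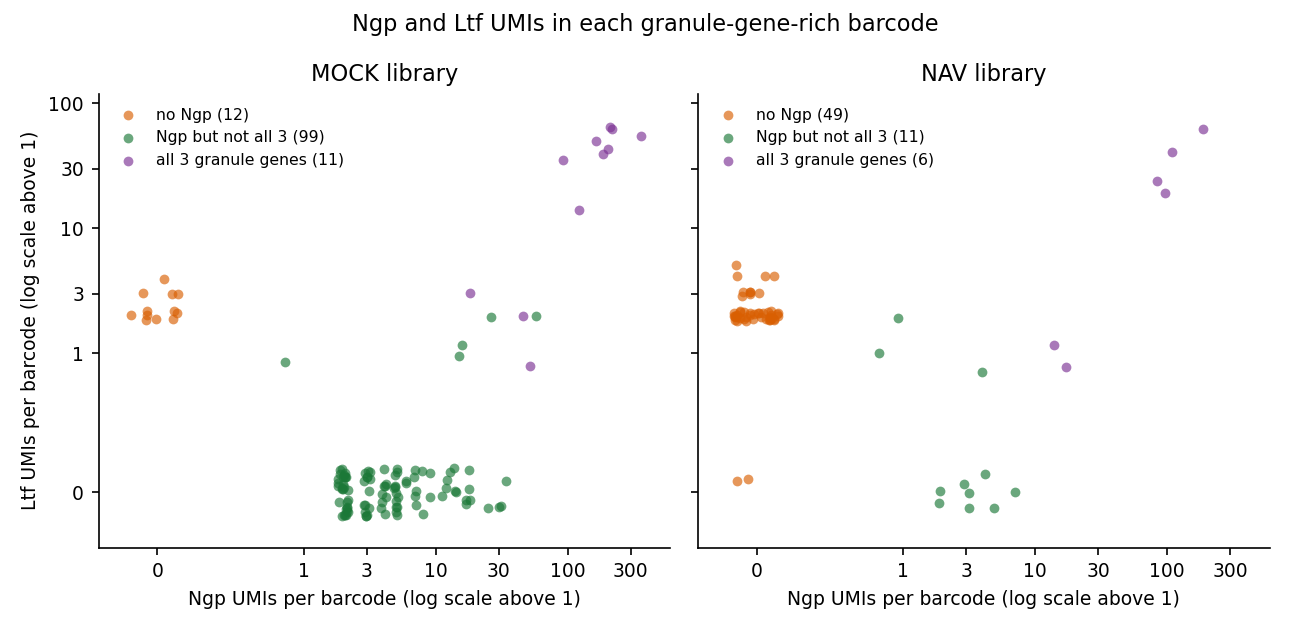
Ngp UMIs (x axis) and Ltf UMIs (y axis) of each member barcode in the MOCK (left) and NAV (right) libraries, marked by the kind of member. The axes are linear up to 1 UMI and log above it, with small jitter. The 11 MOCK and 6 NAV barcodes with all 3 genes lie high on the Ngp axis (18 to 361 and 14 to 188 UMIs). Their Ltf runs from 1 to 65 and from 1 to 63 UMIs. Of 66 NAV barcodes, 46 carry Ltf only.

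Members were therefore described in 3 kinds, a division chosen after these values were seen: barcodes with all 3 granule genes, barcodes with Ngp but not all 3, and barcodes without Ngp. Barcodes with all 3 genes held a median of 243 granule UMIs in MOCK (30 to 540) and 130.5 in NAV (19 to 290). That was a median of 6.25% and 4.53% of each barcode's UMIs. These 11 and 6 barcodes held 76.7% and 83.2% of all granule UMIs of the members. Barcodes with Ngp but not all 3 genes had medians of 4 (2 to 60) and 3 (2 to 7). Barcodes without Ngp had medians of 2 (2 to 4) and 2 (2 to 5). Just outside the rule lay 133 MOCK and 164 NAV neutrophil barcodes with a sum of 1. Barcodes just inside, with a sum of 2, had Retnlg at 26546 CPM in MOCK and 2761 in NAV, and those just outside had 19990 and 1662. Lcn2 was at 4181 and 552 CPM inside and at 3282 and 399 outside.

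Members made up a smaller share of the NAV library than of the MOCK library. They were 1.13% of kept barcodes in MOCK (0.942 to 1.35) and 0.632% in NAV (0.489 to 0.804), a log2 ratio of −0.84 (−1.30 to −0.40). All neutrophil barcodes moved the other way, from 18.3% to 28.1% of kept barcodes. Of neutrophil barcodes, members were 6.17% in MOCK (5.15 to 7.33) and 2.25% in NAV (1.74 to 2.85), a log2 ratio of −1.46 (−1.91 to −1.01). The 3 kinds went in different directions. Barcodes with Ngp but not all 3 genes were 99 in MOCK and 11 in NAV, 5.01% and 0.375% of neutrophil barcodes, a log2 ratio of −3.74 (−4.79 to −2.84). Barcodes without Ngp were 12 and 49, 0.607% and 1.67%, a log2 ratio of 1.46 (0.53 to 2.50). Barcodes with all 3 genes were 11 and 6, 0.557% and 0.204%, a log2 ratio of −1.45 whose interval, −3.17 to 0.11, held 0. They made up 9.02% of MOCK members and 9.09% of NAV members. With Ngp alone as the granule gene the log2 ratio of the share of kept barcodes was −2.82, and with Ltf alone it was 1.16, so the direction depended on the gene. Differences in dissociation, sorting, depth and pooling cannot be told apart from the treatment here.

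**Figure D2:**
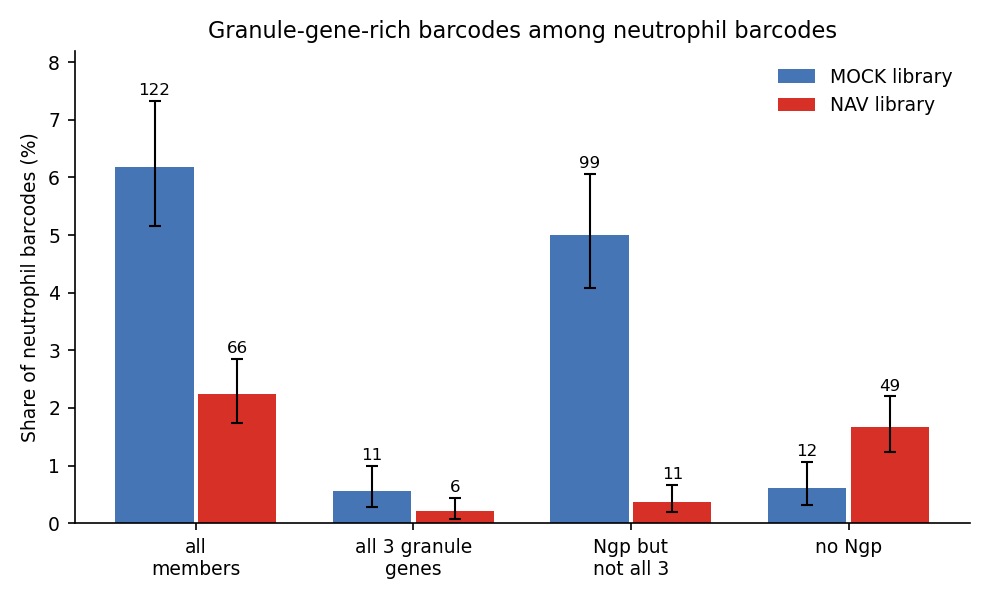
Share of neutrophil barcodes (y axis, percent) that were members of each kind, in MOCK and NAV, with exact 95% binomial intervals and the number of barcodes above each bar. Barcodes with Ngp but not all 3 genes are 99 in MOCK and 11 in NAV, and barcodes without Ngp are 12 and 49.

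Free RNA from lysed neutrophils was looked for in B cell barcodes, which should lack these genes, at median depths of 1351.5 and 1499 UMIs. These barcodes had at least 3 UMIs of Cd79a, Cd79b and Ms4a1 and none of the 5 neutrophil genes of the rule. Barcodes with free RNA of those 5 genes were thus left out, so shares in B cell barcodes can understate free RNA. A granule sum of at least 2 was found in 1 of 734 MOCK and 0 of 672 NAV B cell barcodes, and the latter allows a share of up to 0.446%. Ltf had no UMI in either set, which allows up to 0.409% and 0.446%. All kept barcodes outside the neutrophil rule were deeper, with medians of 4607 and 3352 UMIs. Among them, 0.353% in MOCK and 1.05% in NAV had an Ltf UMI, and 0.534% and 0.107% an Ngp UMI. With a granule sum of at least 2, 18 of 23 such MOCK barcodes and 9 of 20 NAV ones met the neutrophil sum. The source of these UMIs was not tested. Of neutrophil barcodes, 4.05% in MOCK and 6.47% in NAV had an Ltf UMI, and 9.51% and 1.36% had an Ngp UMI. Members held 84.8% of all granule UMIs of kept MOCK barcodes and 75.7% of those of NAV barcodes.

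Barcodes with all 3 granule genes were alike in both libraries in having high specific granule RNA beyond the rule. Lcn2 (ENSMUSG00000026822, chr2:32384633-32388252), lipocalin 2, an iron-siderophore-binding protein of specific granules, was at 15481 CPM in MOCK and 14773 in NAV. Other neutrophils were at 1873 and 508. Ly6g (chr15:75155240-75159126), the neutrophil surface antigen, was at 1194 and 1171 CPM, against 97.5 and 18.5. Cybb, the catalytic subunit of the NADPH oxidase, was at 3744 and 2538 CPM, against 381 and 234. Lta4h, the enzyme that makes leukotriene B4, was at 597 and 911 CPM, against 36.3 and 44.3. Summed over 11 specific granule genes outside the rule, a barcode of this kind held 22885 CPM at the lowest, 43234 at the median and 65719 at the highest in MOCK, and 18388, 35208 and 78152 in NAV. Genes of mature neutrophils were also high. Over 15 of them outside the rule the medians per barcode were 112015 CPM in MOCK and 97532 in NAV, against 25354 and 10078 in neutrophils without a granule UMI. Inflammatory genes were low. Siglecf, an inhibitory sialic acid receptor, was at 0 in all 11 and all 6, which allows a share of barcodes with a UMI of up to 27.3% and 50% at their number. Other neutrophils had one in 23.1% and 31.4%, within these bounds, so the shares cannot be told apart. As summed levels, the upper bounds were 84.7 and 240 CPM, against 226 and 380 in neutrophils without a granule UMI. Il1b, the interleukin 1 beta gene, was at 184 CPM in MOCK and 1041 in NAV, against 6544 and 9631 in other neutrophils. Cd177 differed between the libraries within this kind, at 3836 CPM (167 UMIs) in MOCK and 390 (6 UMIs) in NAV.

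Barcodes with Ngp but not all 3 genes were the ones richest in Retnlg, a secreted resistin-like protein of circulating neutrophils, in MOCK. Retnlg (ENSMUSG00000022651, chr16:48872621-48874496), itself a gene of the neutrophil rule, was at 36132 CPM in MOCK and 16615 in NAV, against 7801 and 2327 in other neutrophils. Mmp8 (ENSMUSG00000005800, chr9:7558456-7568485), the neutrophil collagenase, was at 4662 and 1924 CPM, against 786 and 174. Of 99 such MOCK barcodes 92 had an Mmp8 UMI, 92.9%. At a fixed depth of 1000 UMIs the share was 85.7% (77.2 to 92.0) of 98 barcodes, against 29.1% (26.8 to 31.5) of other MOCK neutrophils and 0.310% of MOCK B cell barcodes. In NAV 7 of 11 had one, and 5 of 10 at the fixed depth. Cxcr2, the chemokine receptor of mature neutrophils and a gene of the rule, was at 2668 and 1126 CPM here, and at 689 and 911 in barcodes with all 3 genes. S100a8, a calcium-binding alarmin, was at 38051 and 20886 CPM, between the barcodes with all 3 genes (56756 and 50176) and other neutrophils (10413 and 4629).

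Barcodes without Ngp were low in specific granule RNA other than the Ltf or Camp that chose them. Mmp8 had 0 UMIs in the 12 MOCK barcodes and was at 44.7 CPM in the 49 NAV barcodes. Ly6g was at 0 in both. Cd177 was at 131 CPM (2 UMIs) in MOCK and 0 in NAV. Lcn2 was at 720 and 59.6 CPM, below other neutrophils in both libraries. Over 11 specific granule genes outside the rule the NAV barcodes held a median of 691 CPM, from 0 to 5000, where NAV neutrophils without a granule UMI held a median of 1253. Gelatinase granule RNA was present, with Mmp9 at 1113 and 1281 CPM against 1712 and 1791 in other neutrophils. Cytokine and adhesion genes were near the levels of other neutrophils or above them. Tnf was at 1374 and 1475 CPM against 645 and 775, and Icam1 at 916 and 1773 against 745 and 1337. Il1b was at 7068 and 10832 CPM against 6544 and 9631. Siglecf was at 196 CPM against 226 in MOCK and at 700 against 390 in NAV. In NAV, Siglecf had a UMI in 24 of 49 barcodes, 49.0%. At the fixed depth this was 42.5% (27.0 to 59.1) of 40 barcodes, against 27.3% (25.4 to 29.2) of other NAV neutrophils. In MOCK it was 16.7% (2.09 to 48.4) of 12 barcodes, against 18.5% (16.6 to 20.6). Eosinophils, another cell type with SiglecF, were not seen: Prg2, Epx, Ccr3 and Prg3 were at 0 in all members.

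**Figure D3:**
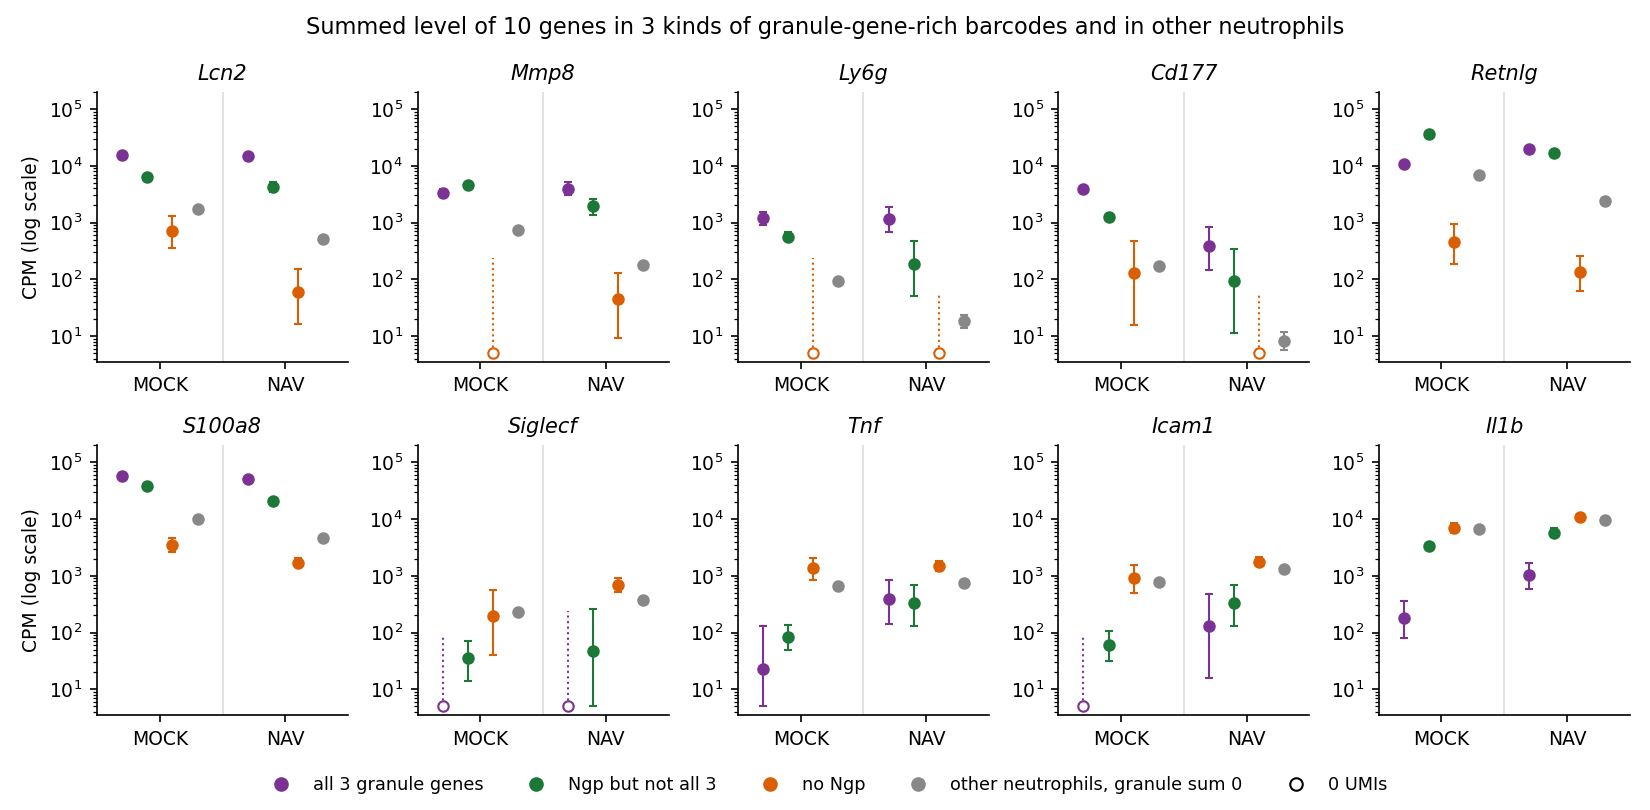
Level (y axis, CPM, log axis) of 10 genes in the 3 kinds of members and in neutrophils without a granule UMI, for MOCK and NAV. Intervals are exact Poisson intervals of the summed counts. Open circles stand for 0 UMIs with a dotted line to the upper bound. Among the 3 kinds, Lcn2 and Ly6g are highest in barcodes with all 3 genes and lowest in those without Ngp, where Siglecf, Tnf and Icam1 are highest.

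Against other neutrophils, members of both libraries were at least 2-fold higher in 36 of 1782 genes, 2.02%, and lower in 15, 0.842%. A gene was counted where, in each library, the 2 classes together had at least 50 UMIs and the higher class reached 100 CPM. This contrast was the one the rule used, so it describes the members and supports nothing. Beside Camp, Ngp and Ltf, the 12 genes that stood highest in both libraries were Adpgk, an ADP-dependent glucokinase, Ly6g, the interferon-induced membrane protein gene Ifitm6, Mmp8, the antimicrobial protein gene Wfdc21, Lcn2, the mitochondrial carrier Slc25a24, Lta4h and the endoplasmic reticulum protein gene Ckap4. Adpgk was at 865 and 434 CPM in MOCK and NAV members, against 66.2 and 42.8 in other neutrophils, log2 ratios of 3.71 and 3.34. Wfdc21 was at 3873 and 1359 CPM against 950 and 304, log2 ratios of 2.03 and 2.16. The lower genes included Fn1, fibronectin, with 14 UMIs in MOCK members and 0 in NAV members, against 523 and 229 CPM in other neutrophils. Cxcl10, an interferon-induced chemokine, was at 3.86 and 77.1 CPM against 127 and 231.

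The specific granule list, 14 genes, had 11 that could be counted in both libraries. Of these, 7 were at least 2-fold higher in members of both: Ngp, Camp, Ltf, Lcn2, Anxa1 (the pro-resolving protein annexin A1), Ifitm6 and Pglyrp1 (a peptidoglycan-binding protein). The list's median log2 ratio to other neutrophils was 1.97 in MOCK and 1.60 in NAV, and 1.18 and 0.89 over the 8 genes outside the rule, against −0.28 and −0.061 for all genes counted. Of 6 gelatinase granule and secretory genes counted, Mmp8 and the membrane protease Mmp25 were higher in both, with medians of 1.0 and 0.60. The list of tumour and inflammatory neutrophil genes had medians of −1.40 in MOCK and −0.11 in NAV. Next to their own library's neutrophils, MOCK members pooled over all kinds were thus low in these genes and pooled NAV members were not. By kind the libraries were alike. In MOCK the list's median per barcode was 1967 CPM with all 3 granule genes and 8148 with Ngp but not all 3. It was 27587 without Ngp and 18338 in neutrophils without a granule UMI. In NAV these medians were 8460, 14006, 34732 and 25717 CPM. In both libraries the kinds with Ngp lay below those neutrophils, and barcodes without Ngp above them.

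Members differed between the libraries in many genes. Of 1267 genes with at least 50 UMIs over both libraries and 100 CPM in the higher, 190 were at least 2-fold higher in NAV, 15.0%, and 167 in MOCK, 13.2%. With median-of-ratios scaling instead of CPM these numbers were 107 and 297, as the median of all genes moved from 0.25 to −0.12. Within members that carried Ngp, 110 MOCK and 17 NAV barcodes, 52 of 919 genes were higher in NAV, 5.66%, and 114 in MOCK, 12.4%. Values within Ngp-bearing members are given below for several lists and for part of the genes, since the share of members with Ngp was far from equal in the libraries. This class was itself a mix. Barcodes with all 3 granule genes were 11 of its 110 barcodes in MOCK and 6 of its 17 in NAV. Ratios within it therefore also carry that difference in mix.

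Specific granule genes were mostly lower in NAV members, and less so within Ngp-bearing ones. Of the 10 list genes tested that were not genes of the rule, 8 were at least 2-fold higher in MOCK and 0 in NAV, with a median log2 ratio of −1.57. Within Ngp-bearing members the median of these 10 was −0.22, with 2 at least 2-fold higher in MOCK and 0 in NAV, and intervals below 0 for 5 genes, above 0 for 2 and holding 0 for 3. In other neutrophils it was −1.42. With Ngp, Camp and Ltf included, the medians were −1.28 in members and 0.13 in Ngp-bearing members, a class that Ngp itself chose. Lcn2 had 1940 UMIs in MOCK members (7492 CPM) and 321 in NAV members (3093 CPM), a log2 ratio of −1.28 (−1.45 to −1.11). Within Ngp-bearing members the ratio was 0.13 (−0.05 to 0.30). Lcn2 thus differed over all members and not, within counting error, over those with Ngp pooled. In barcodes with Ngp but not all 3 genes it was at 6271 CPM (5929 to 6628) in MOCK and 4224 (3397 to 5192) in NAV. In barcodes with all 3 genes it was at 15481 and 14773 CPM. Of all 13 genes Ltf alone had an interval above 0, at 0.69 (0.46 to 0.91), and it is a gene of the rule. Hp, haptoglobin, a haemoglobin-binding protein stored in granules, had 377 UMIs in MOCK and 11 in NAV, a log2 ratio of −3.78 (−4.79 to −2.92). It was also lower within Ngp-bearing members, at −2.65 (−3.79 to −1.71), and in other neutrophils, at −2.90 (−3.05 to −2.76). Olfm4, olfactomedin 4, a protein of a subset of neutrophils, had 54 UMIs in MOCK and 1 in NAV, a log2 ratio of −4.44 (−9.77 to −1.90), and within Ngp-bearing members 54 and 0.

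Gelatinase granule genes were also lower in NAV members. Of 8 tested, 4 were at least 2-fold higher in MOCK and 0 in NAV, with a median of −1.10, −0.36 within Ngp-bearing members and −0.62 in other neutrophils. Cd177 (ENSMUSG00000052212, chr7:24743983-24760311), a surface glycoprotein that binds the protease proteinase 3 and is stored in granules, had the bound farthest from 0. It had 418 UMIs in MOCK members (1614 CPM) and 8 in NAV members (77.1 CPM), a log2 ratio of −4.39 (−5.61 to −3.40). Within Ngp-bearing members it was −2.97 (−4.19 to −1.98), and in other neutrophils −4.45. Cd177 was therefore lower in NAV in each of these classes. Mmp8 had 1080 and 105 UMIs, a log2 ratio of −2.04 (−2.35 to −1.75), with −0.67 (−0.98 to −0.38) within Ngp-bearing members. It was at 4662 and 1924 CPM in barcodes with Ngp but not all 3 genes, and at 3376 and 3970 in those with all 3. Mmp9, gelatinase B, was at 2993 and 1638 CPM in members, a log2 ratio of −0.87 (−1.12 to −0.63), with −0.44 (−0.78 to −0.11) within Ngp-bearing members. In other neutrophils it was at 1712 and 1791 CPM, a ratio of 0.06 (0.01 to 0.12).

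Surface receptors were mixed. Of 11 tested, 4 were at least 2-fold higher in MOCK and 0 in NAV, with a median of −0.86. Without Csf3r and Cxcr2, genes of the neutrophil rule, these were 3 and 0 of 9, with a median of −0.86. Ly6g (ENSMUSG00000022582) had 165 UMIs in MOCK and 22 in NAV, a log2 ratio of −1.59 (−2.30 to −0.94), and −0.17 (−0.89 to 0.47) within Ngp-bearing members. In barcodes with Ngp but not all 3 genes it was at 565 CPM in MOCK and 188 (4 UMIs) in NAV. In those with all 3 it was at 1194 and 1171 CPM. Ly6g lies in a family of similar genes, and how reads that match several genes were counted is not given in the sources used here. Cxcr2 was at 2248 and 809 CPM, a ratio of −1.47 (−1.82 to −1.14), and −1.16 within Ngp-bearing members. Cxcr4, the marrow-retention receptor that also marks aged neutrophils, went the other way, from 749 to 1416 CPM, a ratio of 0.92 (0.60 to 1.24). Within Ngp-bearing members Cxcr4 was at −0.78 (−1.69 to 0.01).

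Genes of mature circulating neutrophils were lower in NAV members at least 2-fold in 10 of 15 tested and higher in 0, with a median of −1.50. The median was −0.41 within Ngp-bearing members and −1.20 in other neutrophils. Retnlg, G0s2 and Il1r2 of this list are genes of the neutrophil rule. Without them 8 of 12 tested were at least 2-fold lower in NAV and 0 higher, with a median of −1.51. That median was −0.41 within Ngp-bearing members and −1.22 in other neutrophils. Retnlg had 7708 UMIs in MOCK members and 669 in NAV members, 29767 and 6446 CPM, a log2 ratio of −2.21 (−2.32 to −2.09). Within Ngp-bearing members it was −0.81 (−0.93 to −0.70). Slpi, an inhibitor of neutrophil proteases, had 211 and 10 UMIs, a ratio of −3.08 (−4.16 to −2.17), and −2.18 (−3.51 to −1.11) within Ngp-bearing members. S100a8 was at 39159 and 12824 CPM, a ratio of −1.61 (−1.69 to −1.53), and −0.32 (−0.41 to −0.23) within them. For these 3 genes the difference was smaller within Ngp-bearing members pooled. In barcodes with Ngp but not all 3 genes Retnlg was at 36132 CPM in MOCK and 16615 in NAV, and S100a8 at 38051 and 20886. In barcodes with all 3 genes Retnlg was at 10795 and 19914 CPM, the other direction, and S100a8 at 56756 and 50176. Among other genes ranked highest in MOCK were the cytoskeletal genes Cnn2 (calponin 2), at −3.22 (−4.37 to −2.27), and Zyx (zyxin), at −2.34 (−2.86 to −1.87). Flot2, the membrane scaffold protein flotillin 2, had 52 UMIs in MOCK members and 0 in NAV members, a log2 ratio of −2.80 or lower with 3 counts in place of 0. Cstdc4, at −2.80 (−3.95 to −1.83), belongs to the stefin A family of near-identical copies and is uncertain. Grina, a membrane protein gene, was at −2.65 (−3.46 to −1.95). Within Ngp-bearing members Cnn2 was at −1.95 and Grina at −2.10, and Zyx had 477 and 18 UMIs.

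Tumour and inflammatory neutrophil genes were higher in NAV members. Of 19 tested, 17 were at least 2-fold higher in NAV and 0 in MOCK, with a median log2 ratio of 2.03 where all genes had 0.25. In other neutrophils the median was 0.52, with 6 of 22. Icam1, the adhesion molecule ICAM-1, had 26 UMIs in MOCK members (100 CPM) and 128 in NAV members (1233 CPM), a log2 ratio of 3.62 (3.00 to 4.29). Il1a, the interleukin 1 alpha gene, had 7 and 48 UMIs, a ratio of 4.10 (2.94 to 5.49). Siglecf had 10 and 48 UMIs, a ratio of 3.58 (2.58 to 4.73). Tnf, the cytokine tumour necrosis factor, had 39 and 112 UMIs, a ratio of 2.84 (2.30 to 3.41). NAV members stood far above MOCK members in these 4 genes, while other neutrophils of the libraries differed by 0.84, 1.21, 0.79 and 0.26. Ccrl2, an atypical receptor that binds chemerin, was at 355 and 2765 CPM, a ratio of 2.96 (2.62 to 3.32). Csf1, the macrophage growth factor gene, was at 116 and 896 CPM, and Hilpda, a hypoxia-induced lipid droplet gene, at 278 and 1696. The other genes ranked highest in NAV were Dusp2, a phosphatase of MAP kinases, at 3.11 (2.57 to 3.69), Tpi1, a glycolytic enzyme gene, at 3.29 (2.31 to 4.39), and Ptma, prothymosin alpha, at 2.48 (2.09 to 2.89). Within Ngp-bearing members Dusp2 was at 2.61 (1.73 to 3.49), Ptma at 1.27 (0.55 to 1.95) and Hilpda at 2.34 (1.63 to 3.04). Tpi1, with 8 and 6 UMIs, was at 2.32 (0.51 to 4.03), and Csf1, with 14 and 17, at 3.01 (1.90 to 4.14). These values include the NAV barcode of 4943 UMIs described below.

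**Figure D4:**
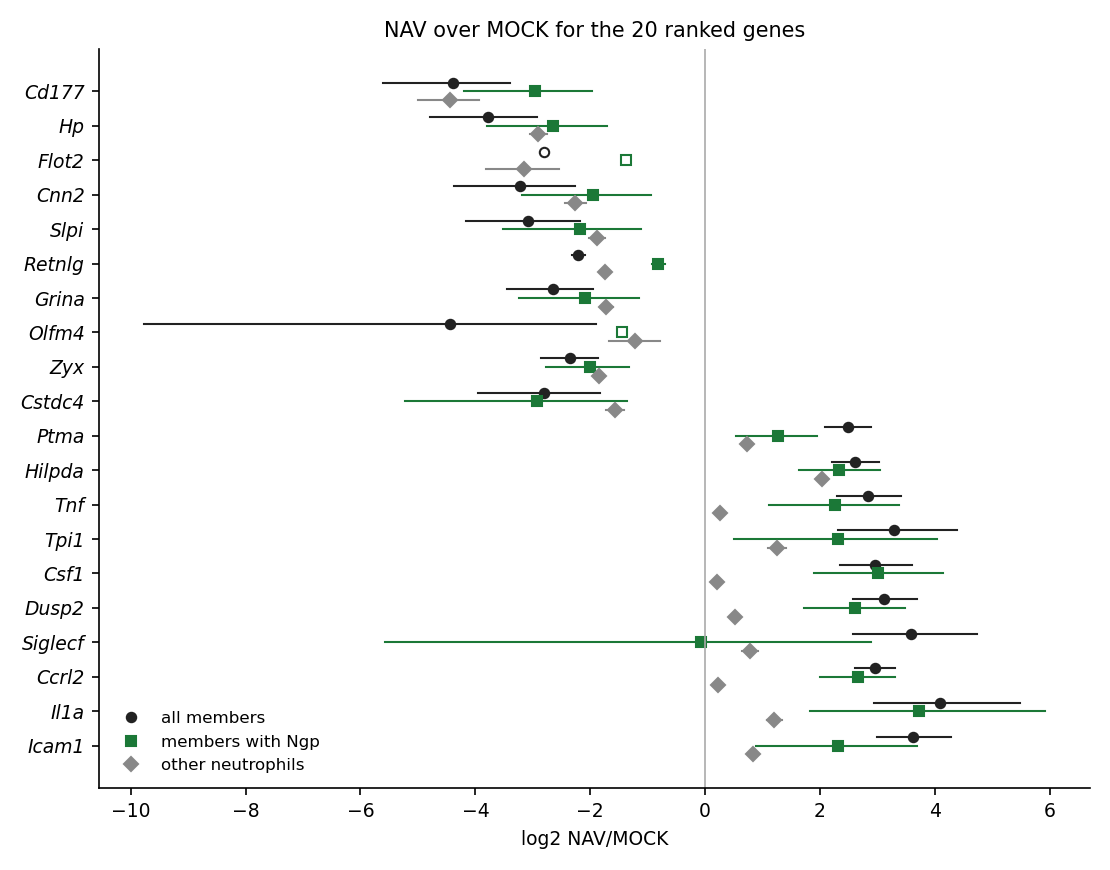
Log2 ratio of NAV to MOCK (x axis) of the 20 ranked genes in all members, Ngp-bearing members and other neutrophils, with exact 95% intervals, and open symbols where a ratio is a bound at 3 counts. Cd177 and Hp lie below 0 in each class, and Siglecf lies at 3.58 in all members and −0.075 in Ngp-bearing ones.

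Within Ngp-bearing members the list's median was 1.84 over 16 genes with at least 20 UMIs, with intervals above 0 for 11 and below 0 for 0. There the chemokine gene Ccl3 was at 4.16 (3.21 to 5.20), Il1a at 3.73 (1.83 to 5.91), Icam1 at 2.32 (0.89 to 3.69) and Tnf at 2.26 (1.11 to 3.37). Siglecf was at −0.075 (−5.57 to 2.89), with 7 and 1 UMIs. In NAV, 1 barcode of 4943 UMIs held 246 of the 495 list UMIs in the 11 NAV barcodes with Ngp but not all 3 genes. Without it the median was 0.71 over 14 genes, with intervals above 0 for 6 and below 0 for 0. Ccl3 was then at 1.56 (−0.28 to 3.14), Il1a at 1.94 (−1.53 to 4.74), Icam1 at 1.36 (−0.73 to 3.08), Tnf at 1.58 (0.08 to 2.91) and Ccrl2 at −0.16 (−1.86 to 1.17). Dusp2 was at 1.47 and Ptma at 0.64. Within members without Ngp, 12 and 49 barcodes, the list's median was 0.16. Per barcode, the list's 24 genes summed to a median of 1967 CPM in MOCK barcodes with all 3 granule genes, 8148 in those with Ngp but not all 3, and 27587 in those without Ngp. In NAV these medians were 8460, 14006 and 34732 CPM. Neutrophils without a granule UMI had medians of 18338 and 25717. The order of the kinds was the same in both libraries.

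**Figure D5:**
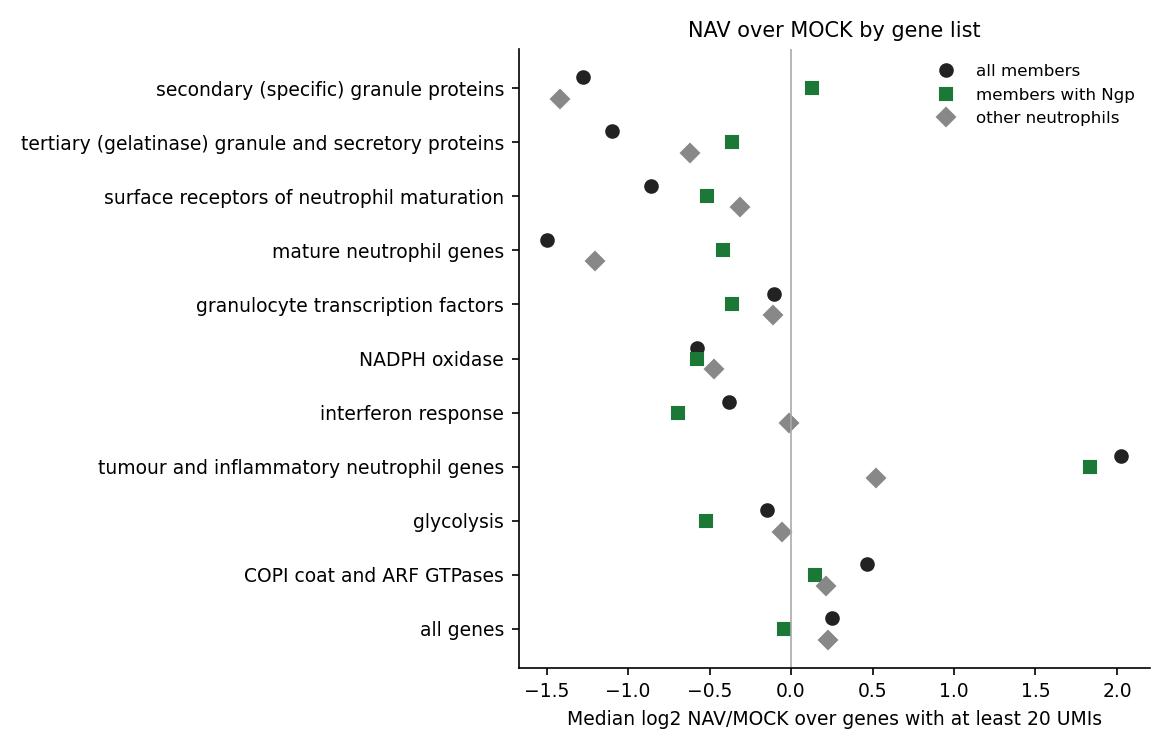
Median log2 ratio of NAV to MOCK (x axis) of each gene list in all members, members with Ngp and other neutrophils. The specific granule list, genes of the rule included, lies at −1.28, 0.13 and −1.42, and the tumour and inflammatory list at 2.03, 1.84 and 0.52.

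In the cell cycle list 3 of 18 measured genes had at least 20 UMIs, with a median log2 ratio of 1.73. The intervals of Pcna (12 and 23 UMIs) and Cks2 (21 and 28) lay above 0. That of Hmgb2, which had the most UMIs of the 3, held 0. Within Ngp-bearing members Hmgb2 had 341 and 53 UMIs, a ratio of 0.05 (−0.40 to 0.47). The lists below had medians between −0.58 and 0.47. The COPI coat and ARF GTPase list, which holds the family that NAV2729 is known to act on, had a median of 0.47 over 14 genes with at least 20 UMIs. None of its 6 tested genes differed 2-fold. Arf1, a GTPase that recruits the COPI coat to the Golgi, was at 591 and 549 CPM, a ratio of −0.11 (−0.57 to 0.34), and Arf6, a GTPase of the plasma membrane, at 313 and 607 CPM, a ratio of 0.96 (0.46 to 1.45). Arf6 was at 0.52 (−0.36 to 1.32) within Ngp-bearing members and at 0.25 (0.15 to 0.35) in other neutrophils. Granulocyte transcription factors had a median of −0.11. Spi1, which encodes PU.1, had 67 and 7 UMIs, a ratio of −1.94 (−3.31 to −0.82), and −2.31 (−5.39 to −0.40) within Ngp-bearing members. Cebpb, the C/EBP factor of mature and emergency granulopoiesis, was at 5681 and 5328 CPM, a ratio of −0.09 (−0.24 to 0.05). Interferon response genes had a median of −0.38, with Ifitm3 and Slfn4 the 2 of 4 tested that were higher in MOCK. NADPH oxidase genes had a median of −0.58 with 0 of 5 at least 2-fold apart. Glycolysis genes had a median of −0.14, with Tpi1 and Pgam1 higher in NAV and Gapdh higher in MOCK. The immunosuppressive myeloid list had a median of 0.32, with Ptgs2, the inducible cyclooxygenase, and Olr1, a lipoprotein receptor, higher in NAV. Arg1, arginase 1, was at 0 in members of both libraries. The leukotriene and prostaglandin list had a median of 0.17. Alox5ap, which activates 5-lipoxygenase, was at 2468 and 829 CPM, a ratio of −1.57 (−1.92 to −1.25), and −1.05 within Ngp-bearing members.

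Markers of other cells moved with the members in places. Monocyte and macrophage markers, all 8 of 8 detected, summed to 1271 CPM in MOCK members and 867 in NAV members, against 1121 and 610 in other neutrophils. Most of the members' 329 and 90 UMIs came from 1 gene, Ly6c2, with 263 and 60 UMIs in Ngp-bearing members. B cell markers had 2 UMIs in MOCK members, both Ighm, and 30 in NAV members, 27 of them in members without Ngp. T cell markers had 23 and 7 UMIs, with Cd4 at 0 in both. In MOCK, 22 of them lay in barcodes with all 3 granule genes. Dendritic cell markers had 0 and 14 UMIs. The 11 NAV barcodes with Ngp but not all 3 genes held all 7 T cell UMIs, which were Cd8a, and 11 of the 14 dendritic UMIs. For each of these 2 sets, 1 of the 11 barcodes held at least 2 UMIs. They also held 54 of the 90 monocyte and macrophage UMIs of NAV members. Of hepatocyte markers only Trf was seen, with 63 and 26 UMIs, and Alb, Apoa1 and Ttr were at 0. Tumour, erythroid, platelet, eosinophil and basophil markers were at 0. The part of these cells in the differences above was not tested. A doublet score above 0.25 was found for 0 of 122 MOCK and 2 of 66 NAV members, against 1.63% and 1.67% of kept barcodes, and no barcode was removed for it. Of these 2 NAV members, 1 was among the 11 barcodes with Ngp but not all 3 genes.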

How the data were processed

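The files deposited by the authors hold UMI counts, whole numbers by gene and barcode, for each library. The submitters' processing notes name the mm10 build, STARsolo 2.7.10a, fastp and Cell Ranger, and how multi-mapped reads were counted is not given in the sources used here. No barcode lay below 500 UMIs, the lowest value in both libraries. Barcodes with fewer than 500 UMIs or 200 genes, or with 20% or more mitochondrial UMIs, were left out, 93 in MOCK and 24 in NAV. The members and gene lists were chosen with earlier results of these data known. Counts were summed per class and library, and ratios were given exact conditional intervals, shares Clopper-Pearson intervals and sums exact Poisson intervals, in Python 3.11.15 with numpy 2.4.6, scipy 1.17.1 and pandas 2.3.3. A class with 0 counts was set to a floor of 3 counts. The ratio and interval code was tested on simulated data. Genes named were the list members, the 10 highest in each library by the interval bound nearest to 0, and the 12 highest and lowest against other neutrophils by the smaller ratio of both libraries. Shares of barcodes with a UMI were also taken after thinning to 1000 UMIs, leaving out shallower barcodes. Scrublet (scanpy 1.11.5) marked 2 and 1 barcodes by its automatic threshold, which is under 0.5% and had not worked. Scores above 0.25 were used instead, as an alternative only.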

Additional observations from a re-analysis of the deposited data

Results flagged for a closer look

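A pair of genes lay on opposite sides of 0 in members and in other neutrophils, and the difference between the classes was not tested. Mmp9, gelatinase B, had a log2 ratio of NAV to MOCK of −0.87 in members and 0.06 in other neutrophils. Clec4e, the C-type lectin receptor Mincle, had 0.34 and −0.13.

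Granule RNA was also found outside the members. Of kept barcodes that did not meet the neutrophil rule, 23 in MOCK held at least 2 granule UMIs, 381 in all, and 20 in NAV held 62. B cell barcodes with such a sum numbered 1 and 0. Azurophil granule RNA lay in barcodes that were not members: 11 MOCK barcodes with at least 5 UMIs of Mpo, Elane, Prtn3 and Ctsg held 777 of these UMIs, and 2 NAV barcodes held 68. None of these barcodes had an Ngp, Camp or Ltf UMI, and 2 of the MOCK barcodes, with 466 of the UMIs, were other neutrophils.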

How the results depend on the processing

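No paired analysis was possible because each group holds 1 library. The log2 ratio of the members' share of kept barcodes, −0.84 as reported, was −1.75 and −2.41 with a granule sum of at least 3 and 5, −2.82 with Ngp alone and 1.16, reversed, with Ltf alone. As a share of neutrophil barcodes it was −1.46. The single-gene settings, those on Ngp-bearing members and the lists without genes of the rule were chosen after seeing the data. Stricter quality filters, thinning, removal of doublet scores and all 3 genes kept it negative and within the interval of the value reported. Genes at least 2-fold higher in NAV and MOCK numbered 107 and 297 of 1267 tested with median-of-ratios scaling. They numbered 23 and 59 of 481 with a granule sum of at least 5. After subtracting the ratio in other neutrophils they were 107 and 40 of 1267. In Ngp-bearing members they were 52 and 114 of 919, and 36 and 110 of 898 there without the NAV barcode of most UMIs. Under those 5 settings, the specific granule list's median was −1.64, 0.13, −0.21, 0.13 and 0.28, and the mature list's −1.86, −0.40, −0.22, −0.41 and −0.28. With equal weight per cell the specific granule median was −1.48, and without the genes of the rule −1.57. The inflammatory list's median was 0.65 with a granule sum of at least 5 and 0.71 without the NAV barcode. Of the ranked and marker genes, those that reversed were Ly6g (0.14) and Ptma (−1.03) with a granule sum of at least 5, Ly6g (0.81), Cd177 (0.059), Mmp8 (0.13) and Flot2 (0.35) against other neutrophils, Siglecf (−0.075) in Ngp-bearing members, and Ly6g (0.034) and Ccrl2 (−0.16) there without the barcode. Of other genes printed, Lcn2 (0.13), Cxcr4 (−0.78) and Olr1 (−0.59) also changed sign in Ngp-bearing members. Members against other neutrophils gave 76 higher and 110 lower genes with the rule applied after thinning to 500 UMIs, and 84 and 166 for Ngp-bearing members. The causes were not tested. The 17 NAV barcodes with Ngp limit the precision of values within that class, whose mix of kinds also differed between the libraries.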
